A study of Mus musculus with 12 samples.

Results

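Natural regulatory T cells (nTreg) labelled as with or without an intact allele of Hrd1 were compared across all expressed genes. The comparison took 6 of the 12 libraries of the series, 3 labelled WT and 3 labelled KO, chosen by their labels alone, and 12038 of 23337 gene symbols had enough reads to be tested. Per the labels, the cells were sorted from spleen and lymph nodes of 8-week-old C57BL/6 mice as CD4+ cells that carry GFP. The KO label stands for Hrd1 flox/flox and the WT label for Hrd1 +/flox, that is, with an allele that Cre cannot cut. Both genotypes carry the Foxp3-cre+-GFP allele, in which Foxp3 drives Cre and the GFP used in the sort. The WT-labelled cells may therefore have lost a copy of Hrd1, and no group of the series lacks Cre or the floxed allele. The other 6 libraries, with the same 2 labels, hold Treg induced in culture for 5 days (iTreg), also labelled with an age of 8 weeks. They served here to share the estimate of spread and for a test of where nTreg differ. For the nTreg no culture time is given, so kind of Treg and culture cannot be told apart in that test. The labels do not say that replicates are separate mice, so p-values cover the spread between these libraries, which may be technical.

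Hrd1, listed under the gene symbol Syvn1, is a ubiquitin ligase in the membrane of the endoplasmic reticulum (ER). With its partner Sel1l and the Derlin channel proteins it moves misfolded proteins out of the ER for degradation by the proteasome, a route called ER-associated degradation (ERAD). Misfolded proteins that stay in the ER activate the sensors IRE1, PERK and ATF6. IRE1 splices the mRNA of Xbp1, whose product raises chaperones, glycosylation and vesicle transport, and ATF6 raises chaperones and ERAD genes. PERK slows translation and raises the factor ATF4, which drives amino acid uptake and synthesis and the factor CHOP. Treg depend on Foxp3, on IL-2 received through Il2ra and on signals of the T cell receptor.

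Total counts ran from 6763458 to 15462894 over the 6 nTreg libraries. Values below are counts scaled to library size (CPM, normalised read counts) after TMM scaling, given for replicates 1, 2 and 3 in this order, and a gene is called where the adjusted p of edgeR's quasi-likelihood test over all tested genes is under 0.05. Fits with the replicate number as a block were run beside it, since the WT-labelled and KO-labelled libraries of a number deviated from their group means in the same direction. The first principal component, with 36.7% of the variance, separated the labels and the second held 31.4%. Foxp3 was at 583, 615 and 666 CPM in the WT-labelled libraries and at 565, 613 and 668 CPM in the KO-labelled libraries, with overlap, and Cd4, whose protein was used in the sort, lay between 656 and 961 CPM. Both libraries numbered 2 stood apart by macrophage transcripts, with Csf1r at 15.9, 95.3 and 30.3 CPM in the WT-labelled and at 8.34, 195 and 34.5 CPM in the KO-labelled libraries. Both libraries numbered 3 held Xist (729 and 483 CPM, at most 0.232 CPM in the other 4) together with the Y-linked Ddx3y (103 and 141 CPM). Both libraries numbered 1 lay apart on the second principal component and were highest in the summed level of 22 AP-1 and immediate early genes, at 9829, 5208 and 4135 CPM in the WT-labelled and 11499.5, 4502 and 3705 CPM in the KO-labelled libraries. Counts of calls without these pairs of libraries are given for part of the lists, and counts given without such values may also move.

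The gene-level count of the target went against the label. Syvn1 (chr19:6046576-6053712, GRCm38) was at 73.7, 87.2 and 75.5 CPM in the WT-labelled libraries and at 146, 137 and 129.7 CPM in the KO-labelled libraries, with no overlap, a log2 fold change of 0.80 ± 0.17 (SE) and an adjusted p of 0.0232 (edgeR). With the replicate block the adjusted p was 0.00412. The call was lost in each of the 6 fits that left out a library, with an adjusted p of up to 0.12 without WT-labelled library 3. The labels do not give the floxed exons, and a count over the whole gene cannot show a deleted part. Each rise or fall described here is that of the KO label over the WT label, as the libraries carry them.

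In the KO-labelled nTreg, 304 genes were called, which is 2.53% of those tested, and 263 of them (2.18%) were higher and 41 (0.341%) lower. Rises were also larger than falls. Of the genes called higher 129 had a log2 fold change of at least 1, 45 of at least 2 and 21 of at least 3, while 13 of those called lower were at or below -1 and 3 at or below -2. The median over the genes called higher was 1.0 and over those called lower -0.68, against 0.01 over all genes tested. The 263 genes took up 20026, 19414 and 19797 CPM in the WT-labelled libraries and 41381, 43175 and 41857 CPM in the KO-labelled libraries. Lists of the ER, of the ATF4 response and of the secretory route, with 412 tested genes, held 130 of the 263 genes called higher and 2 of the 41 called lower. With the replicate block 1083 genes were called (9.0%), 645 higher (5.36%) and 438 lower (3.64%), and these held all 304. The block moved the number of falls more than that of rises. Without the block, 1609 of the 12038 tested genes had an unadjusted p under 0.05 (edgeR). Leaving out WT-labelled library 1, 2 or 3 gave 187, 167 and 188 calls, leaving out KO-labelled library 1, 2 or 3 gave 205, 187 and 216, and leaving out both libraries numbered 1, 2 or 3 gave 133, 103 and 120. In all 6 fits that left out a library 141 of the genes called higher and 10 of those called lower were called. In bulk RNA, fewer cells that carry a transcript and less of it per cell cannot be told apart.

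**Figure D1:**
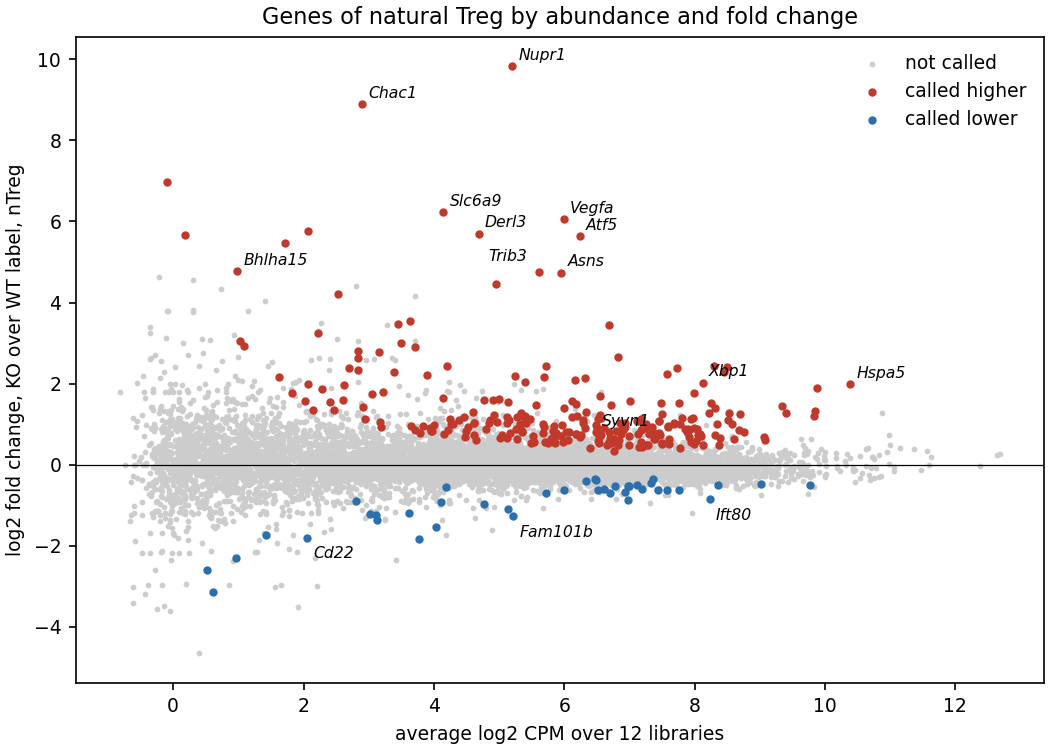
Each point is a tested gene, with the average log2 CPM over 12 libraries on the horizontal axis and the log2 fold change of KO-labelled over WT-labelled nTreg on the vertical axis; red points are the 263 genes called higher and blue points the 41 called lower. The called rises reach farther from 0 than the called falls, and Hspa5 is the most abundant of the genes named in the plot.

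Most chaperones that fold proteins inside the ER rose. Of 23 tested ER chaperones of the Hsp70 and Hsp90 kind and their partners, 17 were called higher and none lower, and the median over the list was 1.28 on the log2 scale. Their summed level was 3236 ± 183 CPM (SD, n = 3) in the WT-labelled and 9457 ± 473 CPM in the KO-labelled libraries. Without both libraries numbered 1, 2 and 3, the number called higher was 15, 14 and 14. Hspa5, the Hsp70 of the ER also called BiP, was at 766, 576 and 505 CPM against 2701, 2506 and 2103 CPM, a 3.96-fold difference (log2 1.98 ± 0.19, adjusted p 9.50e-05, edgeR). Hyou1, which exchanges the nucleotide on Hspa5, was at 139, 136 and 140.2 CPM against 645, 723 and 662 CPM (4.88-fold, adjusted p 1.15e-05). Sdf2l1, which works with DnaJ proteins of the ER, was at 15.7, 15.7 and 16 CPM against 169.5, 187 and 160.1 CPM, a 10.9-fold difference. Manf, a secreted ER protein that binds Hspa5, rose 5.21-fold, the lectin chaperone Canx 2.43-fold and the Hsp90 of the ER, Hsp90b1, 3.72-fold. For each of these 6 genes the lowest KO-labelled library lay above the highest WT-labelled one. That held for all 263 genes called higher and for 15.7% of all tested genes.

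Enzymes that form and shuffle disulfide bonds rose in part. Of 19 tested isomerases and oxidases 7 were called higher and none lower, with a median of 0.15. Without both libraries numbered 1, both numbered 2 or both numbered 3 the count was 6 each time. Pdia6 was at 116, 116 and 109 CPM in the WT-labelled libraries and at 606, 638 and 562 CPM in the KO-labelled libraries (log2 2.41 ± 0.16, adjusted p 1.15e-05, edgeR). Pdia4 rose 3.41-fold, P4hb 2.72-fold and Pdia3, which works with the lectin chaperones, 2.3-fold. Pdia5 went from at most 0.283 CPM to 8.11, 6.93 and 3.24 CPM. The membrane-bound isomerase Tmx1 was at 89.4, 88.3 and 83.6 CPM against 86.7, 83.8 and 84.1 CPM and was not called. Of the oxidases that recharge these enzymes, Ero1lb rose 2.27-fold, while Ero1l was at 42.4, 39.6 and 42 CPM against 42.3, 42.5 and 52.8 CPM and was not called.

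Among Hrd1's own partners and other luminal ERAD genes, 5 of 27 tested were called higher, 8 with the block, and none lower. The count was 4 without both libraries numbered 1, both numbered 2 or both numbered 3. The median log2 fold change was 0.08, against 0.01 over all genes, and was 0.0984 to 0.164 in fits that left out a library and 0.219 without both numbered 1. The estimate was positive for 22 of the 27, and for 14 every KO-labelled library lay above every WT-labelled one, which held for 15.7% of all tested genes. Derl3, a Derlin, had the largest change, from 1.77, 2.12 and 1.02 CPM to 86.7, 94.5 and 66.7 CPM (52-fold, adjusted p 2.75e-06, edgeR). Herpud1, which recruits substrates to the Hrd1 complex, was at 88.3, 78.7 and 93.8 CPM against 395, 393 and 443 CPM (4.72-fold). Sel1l, the partner that holds Hrd1 stable, was at 120.4, 134 and 131 CPM against 243, 302 and 267 CPM (2.11-fold, adjusted p 2.24e-04). Derl1 rose 1.54-fold and H47, which anchors the p97 ATPase, 2.25-fold. Edem2, a mannosidase that marks ERAD substrates, was called with the block and not without it (adjusted p 0.249 without it and 7.60e-04 with it). The lectin Os9, at 256, 238 and 222 CPM against 262, 255 and 227 CPM, was not called. Of 17 other ER ubiquitin ligases none was called higher and Rnf145, a sterol-regulated ligase, was called lower, from 256, 303 and 267 CPM to 161, 193 and 178 CPM (log2 -0.63, adjusted p 0.0249). That call was lost in each of the 6 fits without a library (adjusted p up to 0.135, without WT-labelled library 2).

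Of 20 sensors and transcription factors of the unfolded protein response, 5 were called higher and none lower. Xbp1 was at 89.8, 90.0 and 101 CPM in the WT-labelled libraries and at 367, 405 and 370.1 CPM in the KO-labelled libraries (4.07-fold, adjusted p 1.15e-05, edgeR). Creb3l2, a factor of the ATF6 kind that is released from the ER membrane, was at 15.7, 16.6 and 12.4 CPM against 62.2, 70.1 and 69.3 CPM (4.54-fold). The sensor genes moved less. Atf6 rose 1.71-fold and Eif2ak3, which encodes PERK, 1.76-fold, though without WT-labelled library 2 its adjusted p was 0.0607. Ern1, which encodes IRE1, was at 10.5, 14.4 and 16 CPM against 22.2, 26.5 and 25.4 CPM and was called with the block and not without it (adjusted p 0.212 without it and 0.00625 with it). Without both libraries numbered 2, or both numbered 3, 3 of the 5 calls were left. Counts per gene do not show whether Xbp1 was spliced.

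**Figure D2:**
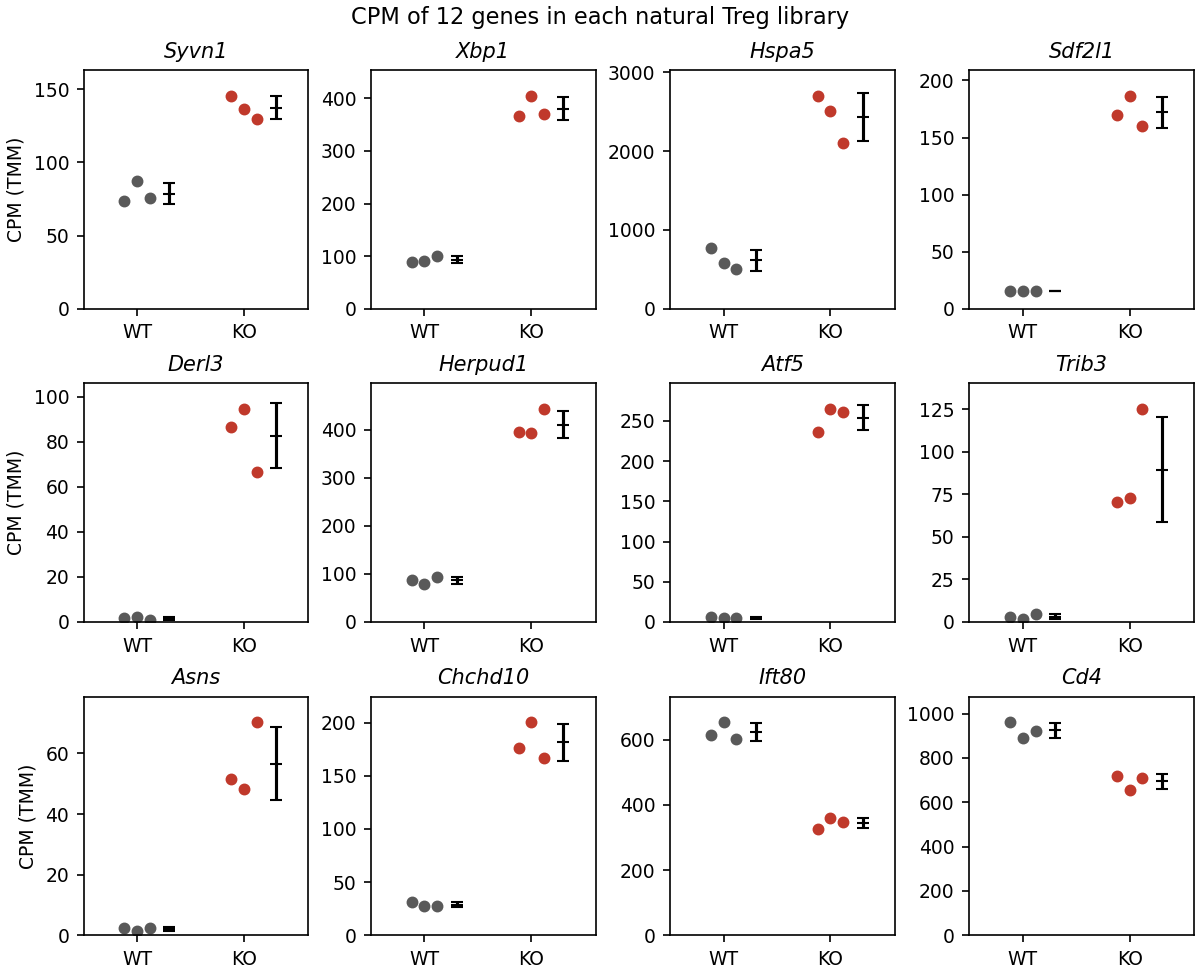
CPM of 12 genes in each nTreg library (points, replicates 1 to 3 from left to right) with the mean and SD of each group of 3 (bars beside them); each vertical axis starts at 0. In the 10 genes from Syvn1 to Chchd10 all KO-labelled points lie above all WT-labelled points, and in Ift80 and Cd4 they lie below.

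Promoters of the raised ER genes were compared with those of all tested genes for the ER stress response element (ERSE), to which ATF6 and XBP1 are known to bind with NF-Y. Windows ran from 250 bases before to 50 bases after the start of RefSeq transcripts (GRCm38.p6), and 9597 tested genes had a window. The letters searched, on both strands, were CCAAT, 9 bases of any kind and CCACG. The following stretches before the start, with CCAAT and CCACG or their complements in capitals, show how the same 2 blocks recur in Syvn1 itself and in 3 genes that rose with it.
Syvn1: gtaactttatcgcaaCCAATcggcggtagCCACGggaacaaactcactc
Hspa5: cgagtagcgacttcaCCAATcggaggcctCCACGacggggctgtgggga
Derl3: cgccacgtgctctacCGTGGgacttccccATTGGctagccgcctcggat
Pdia6: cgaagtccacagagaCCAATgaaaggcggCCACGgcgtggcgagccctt
They lie at chr19:6046517-6046565, chr2:34772010-34772058, chr10:75893227-75893275 and chr12:17266476-17266524, all on the plus strand, and Derl3 holds the element in the reverse orientation. An exact match stood in the windows of 18 tested genes (0.188%) and of 0.119% of all 32851 windows. Of those 18 genes 10 were called higher (55.6%, against 2.18% of all tested genes) and none lower, and the median over the 18 was 1.03 on the log2 scale. The 10 were Calr, Canx, Creld2, Derl3, Dnajc3, Ero1lb, Hsp90b1, Hspa5, Pdia6 and Syvn1. The other 8 held Alg12, a mannosyltransferase of glycosylation, at a log2 fold change of 0.58 (adjusted p 0.151), and genes with no listed role in the ER such as Adcy3 (0.06) and Hnrnpa3 (0.18). The related ERSE-II, ATTGG, 1 base and CCACG, stood in the windows of 8 tested genes, of which Dnajb11, Herpud1, Krtcap2 and Nucb1 were called higher. The XBP1 element TGACGTGG stood in 104 tested genes (1.08%), and 15 of these were called higher. These are matches of letters in a fixed window and not measured binding. The elements were already known from genes of the ER stress response, so the shares are a description and not independent support. In 3 windows matches of different elements overlap.

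The ATF4 response showed the largest single changes. Of 36 tested regulators and targets of ATF4 and CHOP, 16 were called higher and none lower, 20 and 1 with the block, and the median was 1.08. The count was 10 to 14 in fits that left out a library, 11, 6 and 8 without both libraries numbered 1, 2 and 3, and the median without these pairs was 1.14, 1.1 and 0.99. Atf4 itself was at 310.2, 195 and 176 CPM in the WT-labelled libraries and at 616, 407 and 444 CPM in the KO-labelled libraries (adjusted p 0.0284, edgeR, and up to 0.151 without a library). Atf5, a related factor that is translated under stress, had the smallest p of all genes. It was at 6.35, 4.53 and 4.56 CPM against 236, 265 and 261 CPM, a 49.8-fold difference (log2 5.64 ± 0.22, adjusted p 6.90e-08). Ddit3, which encodes CHOP, was at 24.8, 21.4 and 18.8 CPM against 89.9, 88 and 112 CPM (4.47-fold). Trib3, a pseudokinase that CHOP induces, was at 2.81, 1.98 and 4.65 CPM against 70.7, 72.9 and 125 CPM (27.2-fold). Vegfa, the vascular growth factor, went from at most 0.886 CPM to 25.7, 39.1 and 35.3 CPM.

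Several called genes went from no or almost no reads to a clear level. Nupr1, a small nuclear stress protein, had 0 reads over the WT-labelled libraries and 363 reads over the KO-labelled libraries, at 6.49, 10.5 and 15.1 CPM. Against a floor of 3 counts over the group this is at least 87.9-fold higher. Chac1, an enzyme that degrades glutathione, had 0 against 174 reads and was at 2.09, 2.77 and 12.1 CPM, at least 46.4-fold higher. Its adjusted p was 0.0106, and 0.0513 without WT-labelled library 3. Bhlha15, a factor of secretory cells also known as Mist1 and in none of the ATF4 lists, was at most 0.295 CPM in the WT-labelled libraries and at 4.64, 5.42 and 4.1 CPM in the KO-labelled libraries. Aldh1l2, a mitochondrial folate enzyme, had 1 read against 104 reads, and its call (adjusted p 0.0162) was lost in 4 of the 6 fits without a library (up to 0.113, without WT-labelled library 3). The floors cover counting error only.

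Genes of amino acid supply were also called. Of 24 amino acid transporters 6 were called higher and none lower, 8 with the block, with a median of 0.37. The median was 0.133 without KO-labelled library 2 and 0.246 without both numbered 2. Without both libraries numbered 1, both numbered 2 or both numbered 3 the number called higher was 4 each time. Slc6a9, the glycine transporter, went from 0.443, 0.142 and 0.465 CPM to 30.2, 31.8 and 22.4 CPM. Slc1a4, which carries serine and alanine, went from 2.36, 1.7 and 1.4 CPM to 23.3, 33 and 61.6 CPM. Slc7a5, the light chain of the leucine transporter, was at 75.5, 63 and 65.5 CPM against 302, 323 and 482 CPM (5.42-fold), and the arginine and lysine transporter Slc7a1 rose 2.23-fold. Of 29 enzymes of serine, asparagine, proline and one-carbon metabolism, 9 were called higher and none lower, with a median of 0.47. That count was 4, 4 and 3 without both libraries numbered 1, 2 and 3, and 4 to 8 in fits that left out a library. Asns, asparagine synthetase, was at 2.51, 1.42 and 2.33 CPM against 51.5, 48.3 and 70.4 CPM (log2 4.74 ± 0.49, adjusted p 1.65e-04, edgeR). Pycr1, the last enzyme of proline synthesis, went from at most 0.591 CPM to 4.87, 6.62 and 7.23 CPM. The serine pathway moved less, with Phgdh 2.17-fold and the mitochondrial Shmt2 2.22-fold higher.

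The enzymes that load tRNA with amino acids have separate sets for the cytosol and for mitochondria. Of 20 cytosolic tRNA synthetases 11 were called higher and none lower, with a list median of 0.67, and of 17 mitochondrial ones none was called, with or without the block, with a median of 0.07 (edgeR; 0 at an unadjusted p under 0.05, and 0 higher and 0 lower in DESeq2). Sars, for serine, was at 169, 149 and 166 CPM in the WT-labelled libraries and at 373, 379 and 419 CPM in the KO-labelled libraries (2.42-fold, adjusted p 6.19e-04, edgeR). Aars, for alanine, was at 103, 95.8 and 94.6 CPM against 225, 252 and 362 CPM (2.86-fold). The mitochondrial Hars2 was at 57.3, 65.8 and 63.7 CPM against 53.7, 52.7 and 54 CPM and Tars2 at 118, 132 and 125 CPM against 106, 106 and 113 CPM. Without both libraries numbered 1, 2 and 3 the cytosolic count was 4, 3 and 2, where the medians were 0.744, 0.678 and 0.612. The count was 7 to 11 in fits that left out a library.

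The composite site of ATF4 and C/EBP, TGATGNAA on either strand, was searched in the same windows. It is shown in capitals in stretches before the start of 5 genes that rose, to place the factor's letters beside the ERSE genes above.
Asns: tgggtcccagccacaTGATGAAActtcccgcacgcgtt
Nupr1: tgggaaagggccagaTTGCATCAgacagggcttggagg
Chac1: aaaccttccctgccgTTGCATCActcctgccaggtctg
Chchd10: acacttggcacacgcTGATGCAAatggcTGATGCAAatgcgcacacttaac
Herpud1: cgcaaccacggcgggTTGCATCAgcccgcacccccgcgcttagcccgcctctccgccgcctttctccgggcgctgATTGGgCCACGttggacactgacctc
They lie at chr6:7693210-7693247 and chr7:126625558-126625595 on the minus strand and at chr2:119351034-119351071, chr10:75933030-75933080 and chr8:94386302-94386402 on the plus strand. The stretch of Chchd10 holds the site in 2 copies, and that of Herpud1 holds it once and ERSE-II, also in capitals, nearer to the start. The site stood in 270 tested genes (2.81%), of which 19 were called higher (7.04%) and 3 lower. It was held by 9.05% of the genes called higher that had a window (19 of 210) and by 10.3% of those called lower (3 of 29). Of 31 genes called higher in the ATF4 and amino acid lists that had a window, 12 held this site (38.7%) and none ERSE. Those lists were made in part of known targets of ATF4. Of 28 genes called higher in the ER lists that had a window, 9 held ERSE (32.1%) and 2 the ATF4 site. The ER lists, too, were chosen with knowledge of ER stress genes. Of 47 genes called higher in the lists of the secretory route that had a window, 1 held ERSE and 1 the ATF4 site. A gene may stand in more than 1 list. Any of the 4 elements stood in 46 of the 210 genes called higher that had a window (21.9%) and in 4.11% of all tested genes, so most genes called higher held none of these letters.

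**Figure D3:**
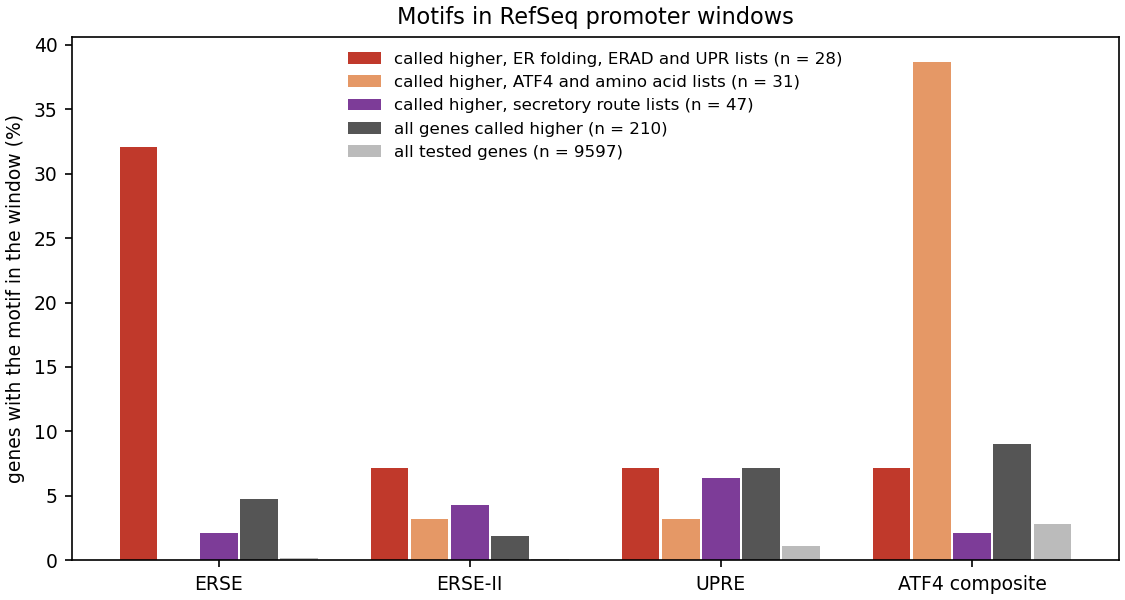
Share of genes (%, vertical axis) whose promoter window holds each of 4 elements, for genes called higher in 3 classes of lists, all genes called higher and all tested genes, with the number of genes with a window in the legend. ERSE reaches 32.1% in the ER lists and the ATF4 site 38.7% in the ATF4 and amino acid lists, against 0.188% and 2.81% of all tested genes.

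Along the route that secreted and membrane proteins take, genes of each step were called higher. At the entry, 10 of 32 translocon, signal recognition and signal peptidase genes were called higher and none lower, 16 with the block. Sec61a1, the channel through which new proteins enter, was at 263, 251 and 257 CPM in the WT-labelled libraries and at 529, 510.5 and 501 CPM in the KO-labelled libraries (2-fold, adjusted p 2.64e-04, edgeR). Ssr3, of the translocon-associated complex, rose 2-fold and Spcs3, of the signal peptidase, 2.17-fold. Of 35 genes of N-glycosylation 14 were called higher and none lower. Dpagt1, the first enzyme of the glycan precursor, was at 20.8, 25.1 and 20.9 CPM against 48.3, 49 and 47.2 CPM, and the catalytic subunit Stt3a rose 1.81-fold. Of 25 genes of nucleotide sugar supply 8 were called higher and none lower. Slc35b1, which brings ATP into the ER, rose 2.84-fold (35.4, 40.2 and 36.6 CPM against 104, 110.5 and 104 CPM). For the entry, glycosylation and sugar lists, there were 6, 12 and 3 calls without both libraries numbered 1, 6, 8 and 2 without both numbered 2, and 7, 10 and 3 without both numbered 3. Fits that left out a library gave 7 to 9, 11 to 14 and 4 to 5 calls.

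Of 31 genes of the COPII coat, which buds vesicles off the ER, 14 were called higher and none lower, 20 with the block, with a median of 0.41. The Sec24 family selects the cargo. Sec24d was at 20.7, 17.7 and 21.5 CPM in the WT-labelled libraries and at 106, 124 and 94.1 CPM in the KO-labelled libraries (5.4-fold, adjusted p 3.10e-05, edgeR). Sec24c, Sec24a and Sec24b had log2 fold changes of 0.35, 0.29 and -0.10 and were not called, and with the block Sec24c was (adjusted p 0.0114). Surf4, a cargo receptor, was at 236, 228 and 239 CPM against 576, 572 and 549 CPM (2.41-fold), and Bet1, which fuses these vesicles with the Golgi, rose 3.06-fold. For the COPI coat of the return route, 5 of 20 were called higher, 15 with the block, and none lower. Gorasp2, a stacking protein of the Golgi, rose 1.99-fold, and Kdelr2, which retrieves ER chaperones, was called (1.73-fold, adjusted p 0.0249) but in none of the 6 fits without a library (up to 0.124, without WT-labelled library 2). The UFM1 system, a ubiquitin-like modifier used on ribosomes at the ER, had 5 of 8 genes called higher with a median of 0.69, among them Cdk5rap3 (1.88-fold). Without both libraries numbered 1 the COPII, COPI and UFM1 lists had 6, 2 and 2 calls, without both numbered 2 they had 6, 1 and 2, and without both numbered 3 they had 5, 2 and 2. In fits that left out a library these lists had 8 to 9, 2 to 3 and 2 to 4 calls.

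Of 22 genes of ER calcium handling 5 were called higher, and 2 were lower with the block. Calr, a calcium-binding lectin chaperone, was at 524, 513 and 517 CPM in the WT-labelled libraries and at 1237, 1399 and 1255 CPM in the KO-labelled libraries (2.5-fold, adjusted p 2.91e-04, edgeR). Nucb2, which binds calcium in the Golgi, was at 16.5, 11.7 and 11.8 CPM against 53.4, 66.7 and 44.8 CPM (4.14-fold). The calcium pump Atp2a2 rose 1.74-fold, a call that 1 of the 6 fits without a library kept (adjusted p up to 0.0823, without WT-labelled library 1). Without both libraries numbered 1, both numbered 2 or both numbered 3 the count was 2 each time.

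Genes of protein quality control outside the ER were mostly not called. The same held for most tested genes, of which 2.53% were called, and 9.0% with the block. An unadjusted p under 0.05 (edgeR) was found for 1609 of all 12038. Of 38 proteasome subunits none was called in either direction, with or without the block, and the median was 0.07 (edgeR; 0 at an unadjusted p under 0.05, 0 higher and 0 lower in DESeq2). Psmb8, of the immunoproteasome, was at 404, 405 and 393 CPM in the WT-labelled libraries and at 496, 443 and 457 CPM in the KO-labelled libraries. Of 26 cytosolic heat shock proteins none was called and 1 was lower with the block (0 at an unadjusted p under 0.05, 0 higher and 0 lower in DESeq2), with Hspa8 at 568, 320.3 and 432 CPM against 654, 426 and 482 CPM, where libraries overlap. Of 14 mitochondrial chaperones and proteases 1 was called, Hspa9, the Hsp70 of mitochondria, at 203, 194 and 196 CPM against 338, 345 and 394 CPM (1.81-fold, adjusted p 0.00132, edgeR), a call lost without both libraries numbered 3. Of 33 autophagy and lysosome genes Atg13 was called higher (1.4-fold), in 3 of the 6 fits without a library (adjusted p up to 0.081, without WT-labelled library 3). Of 20 antioxidant genes none was called, 2 were higher with the block, 3 had an unadjusted p under 0.05 and DESeq2 called 0 higher and 1 lower. Of 21 genes of the p38 and JNK pathways none was called, 1 was higher and 2 were lower with the block, 4 had an unadjusted p under 0.05 and DESeq2 called 0 higher and 1 lower. Of 15 genes of the BCL2 family, Bbc3, which promotes apoptosis, rose 2.08-fold from 26.1, 21.9 and 22 CPM to 49.2, 44 and 52.2 CPM. Its call was lost without both libraries numbered 2 or both numbered 3. Mcl1, which protects from apoptosis, was at 988, 912 and 974 CPM against 752, 689 and 712 CPM. It was called lower with the block (adjusted p 0.0533 without it and 0.00412 with it, edgeR) and in DESeq2.

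**Figure D4:**
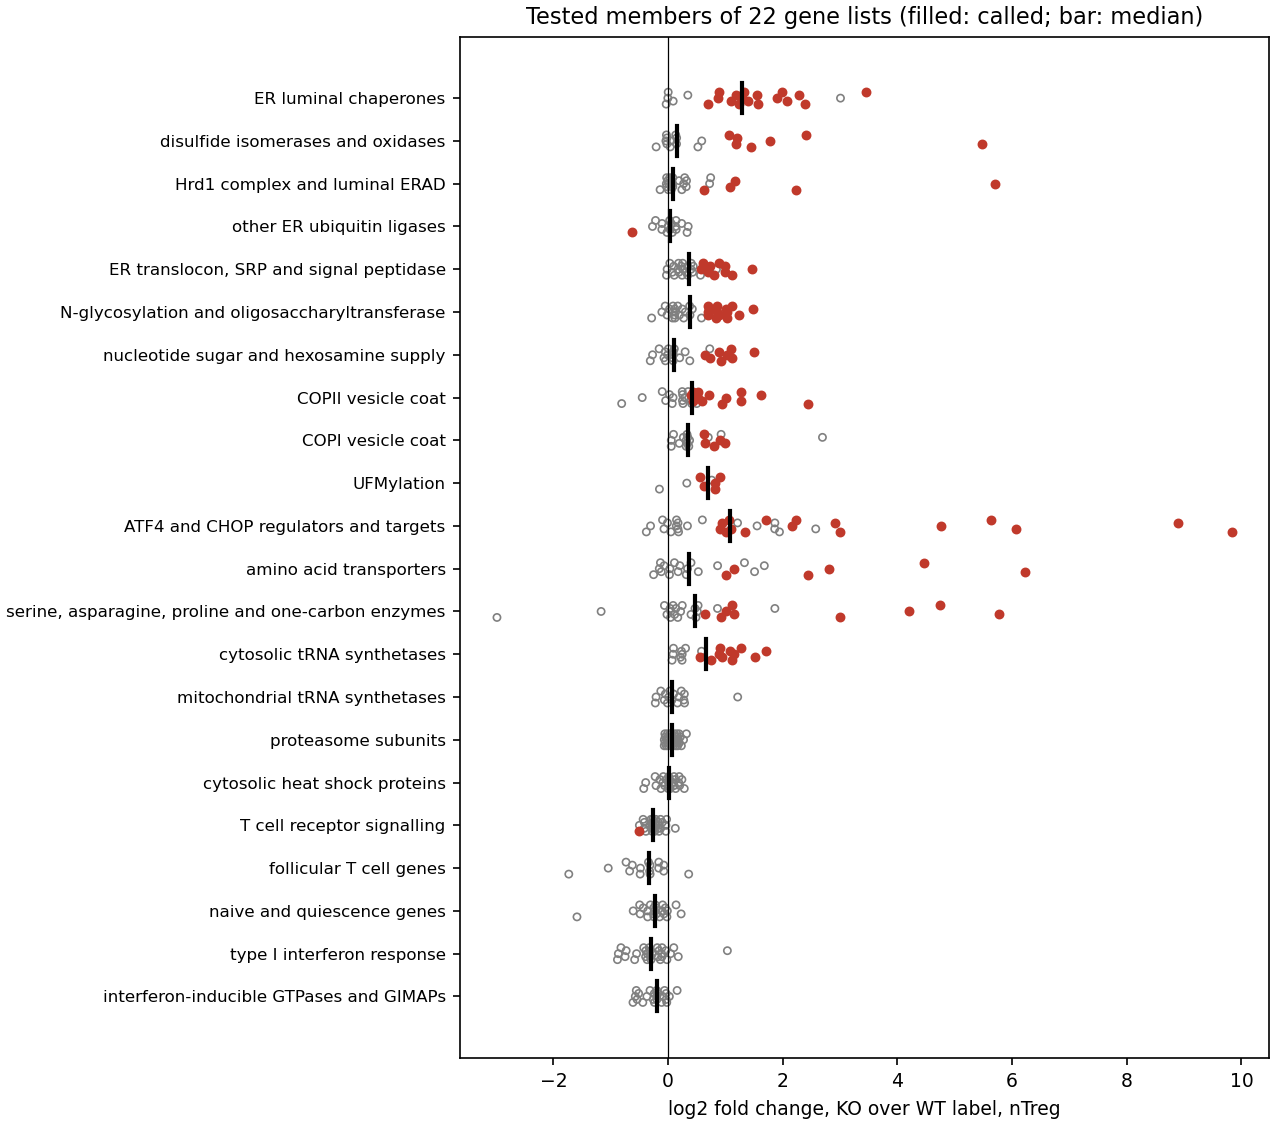
Log2 fold change of KO-labelled over WT-labelled nTreg (horizontal axis) for each tested member of 22 lists; filled points are called, open ones are not, and the black bar is the list's median. The lists from ER luminal chaperones to cytosolic tRNA synthetases hold most filled points, while mitochondrial tRNA synthetases, the proteasome and heat shock proteins hold none and the T cell lists at the foot lie mostly below 0.

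Of the 263 genes called higher, 133 were in none of the ER, ATF4 and secretory lists. Chchd10, a small mitochondrial protein, was at 31.3, 27.3 and 27.6 CPM in the WT-labelled libraries and at 177, 201 and 167 CPM in the KO-labelled libraries (6.32-fold, adjusted p 2.83e-05, edgeR). Snd1, a nuclease of RNA-protein complexes, was at 173, 159 and 149 CPM against 483, 476 and 422 CPM (2.87-fold). Soat2, which esterifies cholesterol, was at 3.84, 1.7 and 1.77 CPM against 28.9, 31.7 and 23.4 CPM (11.7-fold) and was the 1 gene called of 29 of sterol and fatty acid synthesis, 2 with the block. Cks1b, a small partner of cyclin-dependent kinases, was at 9.16, 7.08 and 8.47 CPM against 25.4, 20.7 and 19.5 CPM. Of 29 translation initiation genes Eif1a (1.78-fold) and Eif2s2 (1.65-fold) were called, and 6 with the block. Without both libraries numbered 1, 2 and 3 the count was 1, 0 and 0. Eif2s2 was called in 2 of the 6 fits without a library (adjusted p up to 0.0993, without WT-labelled library 2). Eif4ebp1, which holds back translation, was at 8.42, 5.24 and 8.93 CPM against 21.9, 25 and 36.1 CPM, and its adjusted p was 0.061 without the block and 3.59e-04 with it.

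Of the 41 genes called lower, 7 stood in any of the 50 lists other than those of cell type markers. Ift80, a subunit of the transport machinery of cilia, was at 614, 654 and 602 CPM in the WT-labelled libraries and at 327, 359 and 346 CPM in the KO-labelled libraries (log2 -0.86 ± 0.13, adjusted p 0.003, edgeR). Ecm1, a secreted matrix protein, was at 191, 218 and 212 CPM against 124, 126 and 134 CPM (log2 -0.69, adjusted p 9.67e-04). Ctss, cathepsin S, was at 309, 303 and 292 CPM against 186, 213 and 187 CPM (log2 -0.62, adjusted p 0.00311). Ddb2, a DNA repair factor, and Micall1 had log2 fold changes of -0.64 and -0.53. These 5 were called in each of the 6 fits without a library. Tigit, an inhibitory receptor of effector Treg, was at 93.1, 101 and 83.5 CPM against 53.2, 58.6 and 58.2 CPM (log2 -0.70, adjusted p 0.0106), and Cd96, which binds the same ligand, at 258, 230.4 and 236 CPM against 159, 145 and 148 CPM (log2 -0.68, adjusted p 0.0315). Traf1, an adaptor of TNF receptors, was at 261, 254 and 238 CPM against 168, 169.6 and 149.9 CPM (log2 -0.63), and Fam101b, an actin-associated protein, had the largest fall among called genes with an average log2 CPM of at least 5 (log2 -1.28). Without a library, the adjusted p reached 0.0682 for Tigit (WT-labelled library 2), 0.153 for Cd96 (KO-labelled library 2), 0.0606 for Traf1 (KO-labelled library 3) and 0.179 for Fam101b (KO-labelled library 2). Without both libraries numbered 1, 2 and 3, 5, 3 and 5 genes were called lower.

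Among genes of T cell identity, 1 of 22 core Treg genes was called higher (4.55%, against 2.18% of all tested genes). It was Gpr83, an orphan receptor of Treg (105, 115 and 141 CPM against 205, 182 and 222 CPM, adjusted p 0.0396, edgeR, and 0.179 without WT-labelled library 2). With RLE size factors that call was lost, and DESeq2 called 3 higher. With the block 6 were higher and none lower, against 5.36% and 3.64% of all tested genes. The 6 nTreg libraries alone gave 4 higher and 2 lower, and 6 higher and 10 lower with the block. Among those higher with the block in the fit over 12 libraries was Il2ra, the high-affinity chain of the IL-2 receptor. It was at 794, 858 and 863 CPM against 1071, 1221 and 1200.4 CPM (adjusted p 0.089 without the block and 0.0124 with it, edgeR). Il2rg, the common chain of that receptor, was lower, at 765, 748 and 778 CPM against 532, 546 and 552 CPM (log2 -0.49, adjusted p 0.0249), though in none of the fits without a library (up to 0.115, without KO-labelled library 1). The IL-2 targets Cish (1.47-fold, adjusted p with the block 0.00103) and Socs2 (1.98-fold, 4.64e-04) were called higher with the block and not without it (edgeR), and of the 20 genes in their list DESeq2 called 2 higher and 2 lower. Lag3, an inhibitory receptor, was at 39.6, 44.6 and 36.1 CPM against 19.7, 26 and 19.7 CPM and was called lower with the block (adjusted p 0.14 without it and 0.00812 with it).

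In the list of T cell receptor signalling, of 29 tested genes 1 was called lower, Cd3g, at 538, 508 and 512 CPM in the WT-labelled libraries and 377, 365 and 354 CPM in the KO-labelled libraries (log2 -0.51, adjusted p 0.0315, edgeR). That call was lost in each fit without a library (up to 0.138, without KO-labelled library 2). With the block 8 were lower and none higher, against 3.64% and 5.36% of all tested genes. In 22 of the 29 every KO-labelled library lay below every WT-labelled one, which held for 14.1% of all tested genes (29.8% had no overlap in either direction), and the median log2 fold change was -0.26. The summed level was 15633, 15549 and 15484 CPM in the WT-labelled and 13186, 12769 and 13067 CPM in the KO-labelled libraries. Cd4, the co-receptor used in the sort, was at 961, 891 and 919.9 CPM against 719, 656 and 707 CPM, and its adjusted p was 0.23 without the block and 0.019 with it. Cd5, which dampens receptor signals, was at 802, 830.2 and 752 CPM against 589, 574 and 523 CPM (0.248 and 0.0307). Several other T cell lists had medians below 0, among them anergy and receptor brakes (-0.24), chemokine receptors and homing (-0.19) and Th1 genes (-0.19). The same held for suppressive molecules (-0.15) and the TNF receptor family (-0.12). Medians below 0 were also found in lists of follicular T cells (-0.33), naive T cells (-0.23), the type I interferon response (-0.30) and interferon-inducible GTPases with GIMAPs (-0.20). None of their genes was called without the block (edgeR). There 4, 3, 4 and 3 had an unadjusted p under 0.05, as had 1609 of all 12038 tested genes. With the block 5 of 16, 5 of 24, 6 of 30 and 3 of 23 were lower and 0, 0, 1 and 0 higher. Over all tested genes 3.64% were lower with the block and 5.36% higher. DESeq2 called 1, 2, 0 and 3 lower in these lists. Cxcr5, which guides cells to follicles, was at 73, 84.8 and 51.7 CPM against 34.9, 36.3 and 30.2 CPM (adjusted p 0.137 and 7.46e-04). Gimap4, a GTPase of lymphocytes, was at 960.1, 1174 and 1191 CPM against 692, 793 and 802 CPM (0.141 and 0.00341). In the same KO-labelled libraries the 263 genes called higher took up more CPM, as given above, and the part of this in the lower values was not tested.

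Cell cycle genes were called in part, and more of them with the block. Of 33 genes of DNA replication 2 were called higher (6.06%, against 2.18% of all tested genes). With the block 9 were, where 5.36% of all tested genes were higher. Of 27 genes of mitosis none was called, with a median of 0.49. Of these, 7 were higher with the block, 7 had an unadjusted p under 0.05 (edgeR) and DESeq2 called 0 higher. Over all 12038 tested genes, 1609 had such an unadjusted p. The replication count was 0 without both libraries numbered 1, 2 or 3 and 0 without WT-labelled library 2, KO-labelled library 1 or KO-labelled library 3. The mitosis median was 0.232 without WT-labelled library 2 and 0.822 without WT-labelled library 1, and the summed level of that list was 744, 373 and 666 CPM in the WT-labelled and 1029, 727 and 772 CPM in the KO-labelled libraries. Cdc45, of the replication helicase, was at 8.57, 6.94 and 9.86 CPM in the WT-labelled libraries and at 19, 14.8 and 15.5 CPM in the KO-labelled libraries (adjusted p 0.0249, edgeR, and up to 0.129 without WT-labelled library 2). Mki67, a marker of dividing cells, was at 137, 94 and 170.4 CPM against 190.3, 177 and 190.4 CPM (adjusted p 0.268 without the block and 0.0414 with it). WT-labelled library 2 was the lowest of the 6. Cdkn1a, an inhibitor of the cell cycle, was at 2.36, 1.98 and 2.7 CPM against 10.7, 8.06 and 6.37 CPM (0.35 and 0.00309).

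In each nTreg library every marker list of another cell type summed to less than the CD4 T cell list. In KO-labelled library 2 the macrophage list summed to 727 CPM and the CD4 T cell list to 3241 CPM. Of 12 macrophage markers none was called (edgeR; 0 at an unadjusted p under 0.05, 0 higher and 0 lower in DESeq2), and their sum ran from 76.1 to 325 CPM in the WT-labelled and from 56.2 to 727 CPM in the KO-labelled libraries. The highest in each group was the library numbered 2. Ms4a1, which encodes the B cell surface protein CD20, was at 0.126 to 1.19 CPM over the 6 libraries. The summed level of the B cell list was 29.6 to 34.6 CPM under the WT label and 17.5 to 17.8 CPM under the KO label, and in it Cd22, an inhibitory receptor of B cells, was at 15.4, 13.6 and 10.8 CPM against 4.4, 3.91 and 3.02 CPM (log2 -1.80, adjusted p 0.0104, edgeR, and 0.0693 without WT-labelled library 1). Of 7 tested plasma cell markers Derl3 and Txndc5, both ER genes, were called higher, and Sdc1, which defines plasma cells, was at most 0.811 CPM. Igj, which joins antibody chains, was at 27.9, 0.991 and 1.4 CPM in the WT-labelled and at 16.7, 0.819 and 1.29 CPM in the KO-labelled libraries, high in both libraries numbered 1. All 7 tested CD4 T cell markers were lower in every KO-labelled library than in any WT-labelled one (14.1% of all tested genes), none called (edgeR; 3 at an unadjusted p under 0.05, 0 higher and 0 lower in DESeq2) and 2 lower with the block, with sums of 4033, 3968 and 4013 CPM against 3380.4, 3241 and 3270.2 CPM.

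**Figure D5:**
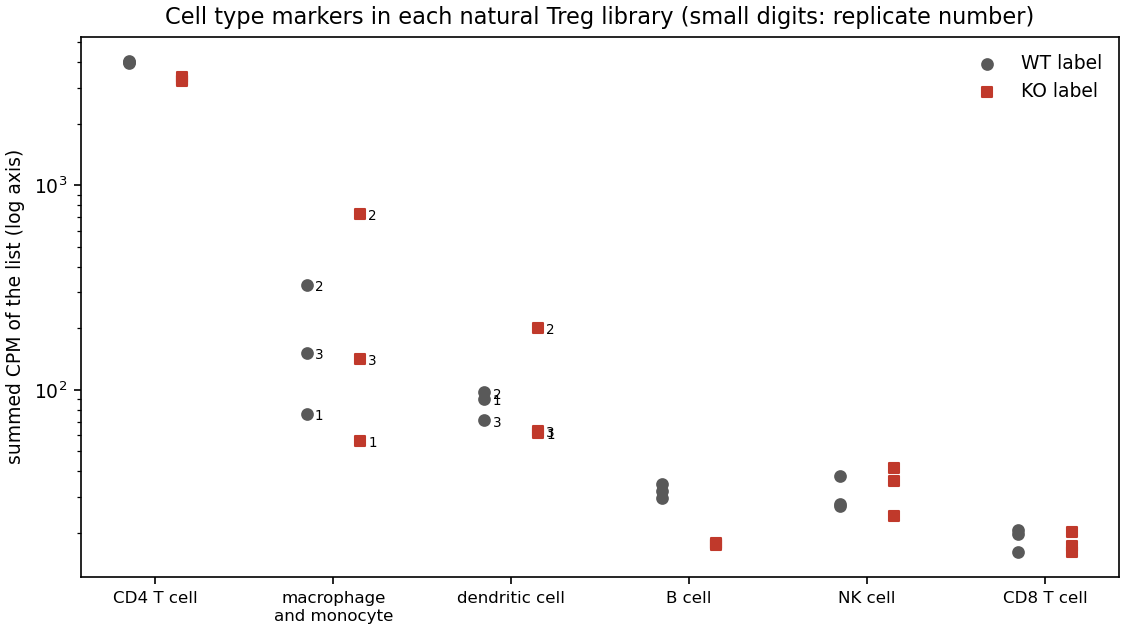
Summed CPM of marker lists of 6 cell types (vertical log axis) in each nTreg library, with grey circles for the WT label and red squares for the KO label; small digits give the replicate number for macrophage and dendritic cell markers. The library numbered 2 is highest for macrophages under both labels, and CD4 T cell markers lie at 3968 to 4033 CPM under the WT label and 3241 to 3380.4 CPM under the KO label.

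Whether nTreg responded differently from iTreg was tested as the difference of both effects in the fit over all 12 libraries. For 35 genes (0.291%) the effects differed, with 33 more positive in nTreg (0.274%) and 2 more negative (0.0166%). Atf5 had the smallest p, with log2 fold changes of 5.64 in nTreg and 1.48 in iTreg (adjusted p of the difference 4.21e-05, edgeR). Xbp1 was at 2.02 and 0.47 (0.012), Slc6a9 at 6.23 and 1.66 (0.012) and Snd1 at 1.52 and 0.41 (0.012). Cks1b was at 1.40 and -0.01 (0.012), a gene that thus moved in nTreg and lay near 0 in iTreg. The 2 genes more negative in nTreg were Camk4, a calcium-dependent kinase (-0.45 and 0.35, 0.0355), and Gbp10 (-0.37 and 1.32, 0.0355), which was not called in nTreg. For Hspa5 the effects were 1.98 and 1.59, and a difference was not detected (0.879). Syvn1 was at 0.80 and -0.30 (0.102). With the block 217 genes differed (1.80%). Leaving out a library gave 5, 13 and 1 genes without nTreg WT 1, 2 and 3, 16, 12 and 16 without nTreg KO 1, 2 and 3, 20, 14 and 52 without iTreg WT 1, 2 and 3, and 31, 58 and 21 without iTreg KO 1, 2 and 3. Without both nTreg libraries numbered 2 or both numbered 3 Atf5 was the 1 gene left, and without both numbered 1 Atf5 and Slc1a4 were. The iTreg WT-labelled library 2 held Xist at 2027 CPM and Ddx3y at 0, while the other 5 iTreg libraries held Xist at no more than 0.209 CPM.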

How the data were processed

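RNA of the 12 libraries was read on an Illumina NextSeq instrument, per the labels. Deposited by the authors are unnormalised read counts for each gene symbol, checked to be whole numbers. Tools named in the submitters' processing notes are cutadapt 1.13, STAR, HTSeq 0.6.1p1 and DESeq2 with build mm10, but their roles and the annotation are not given in the sources used here. Members and gene lists were chosen with earlier results of these data known.

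Counts were tested with edgeR 4.0.16 (R 4.3.3), quasi-likelihood with robust dispersion and TMM scaling, on all 12 libraries with a term per group (8 residual degrees of freedom) and edgeR's filter (min.count 10, min.total.count 15). Adjusted p is Benjamini-Hochberg over 12038 genes. The SE given is the absolute log2 fold change divided by the square root of the test's F value. Replicate numbers come from the labels and were used to pair the nTreg libraries. Deviations from the group means of the same number correlated at 0.572, 0.511 and 0.438, those of other numbers at -0.421 to -0.0544. Deviations within a group cancel out for each gene, so the negative values follow in part from the positive ones. The fit with the replicate block within each cell type has 4 residual degrees of freedom. Alternatives were RLE size factors, no filter, a CPM of at least 5 in 3 libraries, DESeq2 1.42.0, the 6 nTreg libraries alone, and leaving out libraries. The test was tried on simulated data first.

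Genes were named by rule: Syvn1, the 15 largest rises and falls among abundant called genes without overlap, genes off under the WT label, up to 5 members of smallest p per list with up to 2 abundant uncalled ones, the 8 largest rises and falls called with the block and not without it, and the 6 of smallest p in each direction of the difference from iTreg. Foxp3, Hspa5, Hsp90b1, P4hb, Ero1l, Edem2, Ern1, Creld2, Dnajb11, Krtcap2, Alg12, Adcy3, Hnrnpa3, Atf4, Sec24a, Sec24b and Igj were named after their values were seen. Gene coordinates come from GENCODE M21, which lists 20953 of the symbols, and 1904 others under a synonym. Overlapping genes cannot be told apart, since strand use in counting is not given. Plots were made in Python 3.11.15 using matplotlib 3.10.9.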

Additional observations from a re-analysis of the deposited data

Results flagged for a closer look

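For 19 named genes the effect of the KO label differed between nTreg and iTreg by the test of the difference itself (edgeR, adjusted p over all genes). The difference of log2 fold changes, nTreg minus iTreg, was 4.15 for Atf5 (adjusted p 4.21e-05), 3.75 for Trib3 (0.012) and 1.87 for Chchd10 (0.0169). It was 1.55 for Xbp1, 1.18 for Herpud1, 3.06 for Derl3 and 0.99 for Canx. Among transporters it was 4.57 for Slc6a9 and 3.98 for Slc1a4. In the secretory route it was 1.05 for Dpagt1, 0.81 for Surf4 and 1.25 for Bet1. It was 1.11 for Snd1, 2.42 for Soat2, 1.41 for Cks1b and 6.13 for Vegfa. For Nupr1 it was 9.19, a fitted value that depends on the prior count, since the WT-labelled nTreg had no reads. It was -0.81 for Camk4 and -1.69 for Gbp10.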

How the results depend on the processing

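The count of called genes, 304 (263 higher, 41 lower), was 292, 282 and 305 with RLE size factors, without a filter and with a CPM of at least 5 in 3 libraries. DESeq2 called 487 (144 lower), the replicate block 1083 (645 and 438), the 6 nTreg libraries alone 1142 (621 and 521) and these with the replicate block 3746 (1880 and 1866), where 2 residual degrees of freedom are left. Without both libraries numbered 1, a setting chosen after seeing the data, it was 133 (128 and 5), without both numbered 2 it was 103 (100 and 3) and without both numbered 3 it was 120 (115 and 5). Leaving out each library gave 167 to 216 (155 to 197 higher, 12 to 19 lower). The count for the difference from iTreg, 35 (33 and 2), was 137 (111 and 26) in DESeq2, 217 (176 and 41) with the replicate block, 2 (2 and 0) without both numbered 1, 1 (1 and 0) without both numbered 2 or both numbered 3, and 1 to 58 (1 to 55 and 0 to 3) on leaving out each library. Fewer libraries or residual degrees of freedom are part of these settings, and no other cause was tested. Syvn1 kept its direction in all of them, and its log2 fold change was 0.71, 0.88 and 0.81 without both numbered 1, 2 or 3 and 0.76 to 0.88 on leaving out each library, all no longer called. Foxp3, uncalled in each setting, changed sign to 0.0388 without WT-labelled library 3 and to 0.0446 without KO-labelled library 1, in a range from -0.0764, and to 0.0006 without both numbered 1. Sdc1, uncalled, was at -0.0009 without both numbered 1. Igj, uncalled at -0.70, was at 2.3411 without WT-labelled library 1 and -3.2571 without KO-labelled library 1. Of 88 named genes that were called, 25, 31 and 31 were no longer called without both numbered 1, 2 or 3. The block lost none of the 304 calls. RLE moved the median of all genes to -0.02. Depth limits genes of few reads, for which a missing call is not a missing change.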

Other observations

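With the replicate block 382 genes were called higher and 397 lower that were not called without it. Plk2, a kinase of the stress response, was at 28.5, 11.2 and 5.02 CPM in the WT-labelled libraries and at 102, 43.2 and 29 CPM in the KO-labelled libraries, with replicate 1 highest and replicate 3 lowest under both labels. Its adjusted p was 0.14 without the block and 0.0116 with it (edgeR). Ndrg1, a gene induced by low oxygen, was at 23, 25.5 and 26.7 CPM against 55.6, 59.5 and 59.6 CPM (0.442 and 0.00201). Fosl2, an AP-1 factor, was at 9.6, 5.8 and 10.7 CPM against 24.6, 19.3 and 18.9 CPM (0.107 and 0.00764).

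Among the falls called with the block and not without it, Kcna3, the potassium channel of effector T cells, was at 77.8, 125 and 99.4 CPM against 46.6, 72.7 and 57.3 CPM (0.268 and 4.43e-04, edgeR). Its libraries are ordered alike under both labels, with replicate 2 highest and replicate 1 lowest. Il6ra, the receptor of IL-6, was at 316, 305 and 348 CPM against 167, 187 and 222 CPM (0.383 and 0.0177). Pde2a, which degrades cyclic nucleotides, was at 171, 159.5 and 199.6 CPM against 106, 79.3 and 109 CPM (0.194 and 0.00436). Bmp7, a ligand of the TGF-beta family and called lower without the block, was at 37.7, 35 and 28.9 CPM against 17.7, 13.4 and 12.8 CPM (log2 -1.21, adjusted p 0.00589).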
